A study of Mus musculus with 3 samples.

Results

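Axon guidance ligands and receptors were taken as all gene symbols of the semaphorin, plexin, neuropilin, Slit, Robo, Eph, ephrin, netrin, netrin-G and Unc5 families, together with Dcc and Neo1. The rule matched 73 of 32531 symbols. Of these, 72 were protein-coding genes, and the remaining match, Plxna4os1, is an antisense transcript that was kept apart. The members were chosen by name, with earlier results of these data known, and their levels were no part of the rule.

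Guidance molecules steer growing axons and migrating neurons by attraction and repulsion. Semaphorins act on plexins, the secreted ones mostly together with neuropilins. Slits act on Robo receptors, ephrins on Eph receptor kinases, and netrins on Dcc, neogenin and the Unc5 receptors. In the adult cortex many of the same genes remain in use at synapses, where they are known for roles in spine structure and in the placing of inhibitory and excitatory contacts.

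The values come from ribosome-bound RNA of whole cerebral cortex of adult mice that carry Htr3a-Cre (NO176) and Rosa26-LSL-EGFP/Rpl10a. Cells that have expressed Cre from the Htr3a regulatory sequence make EGFP-tagged ribosomes, which were captured with antibodies against EGFP. The 3 libraries, replicates 1, 2 and 3, form 1 immunopurified group in which all samples share both alleles. The labels do not say whether they came from separate animals. Unpurified cortex was not analysed here, so each comparison sets genes against genes within the same libraries. Levels are given as TPM (transcript abundance scaled to a common total per library), computed from the deposited counts and exon length, and each ± is an SD across the 3 libraries (n = 3).

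Gene counts summed to between 13951332 and 14461053 per library, and a gene at 0 counts could have had up to 3, or 0.207 to 0.215 CPM (counts scaled to a common library total). Counting error alone is covered by that limit. Markers of GABAergic neurons were led by Gad2, an enzyme of GABA synthesis, at 2195 ± 111 TPM. Htr3a stood at 602 ± 46.1 TPM, and Dlx6 was lowest at 10.7 ± 1.45 TPM. Without unpurified cortex these levels do not show which cells were labelled. The 10 GABAergic markers summed to 4545 to 4957 TPM, and 11 markers of excitatory neurons to 3387 to 3760 TPM. Camk2a, at 2543 ± 302 TPM, made up most of the excitatory sum. Of these 11 markers, 10 reached 1 TPM in each library, and Emx1 did not. In RNA pooled over cells, fewer cells of a type and less RNA per cell cannot be told apart.

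Guidance genes ranged from over 100 TPM to no counts at all. Together they took 0.318 to 0.343% of the gene counts. Of the 72 genes, 58 reached 1 TPM in each of the 3 libraries and 33 reached 10 TPM. A mean of 50 TPM or more was found for 13 genes, and the semaphorins Sema6a and Sema5a exceeded 100 TPM. The 14 genes below 1 TPM in some library included 7 with 0 counts in at least 1 library, and Sema3g had none in any.

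Each gene with a mean of at least 1 CPM was tested against the median of all such genes in the same library, which stood at 20.9 to 23.4 TPM. The test was limma with Benjamini-Hochberg adjustment over 12455 genes. It called 23 of the 58 guidance genes that could be tested above the median gene and 31 below it. Over all tested genes, 43.2% were called above and 42.7% below. The corresponding shares of the tested guidance genes were 39.7% and 53.4%, and their median lay at a log2 difference of -0.46, against -0.01 for all tested genes. Without the correction for length the split turned to 31 guidance genes above and 23 below, with 44.2% and 43.9% of all tested genes. The other 14 guidance genes had too few counts to be tested.

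The promoter sequences of 62 members were found in RefSeq tables of build GRCm38.p6. They are shown for a high and a near-absent member of the same families. These were picked because CpG dinucleotides differed between them, so their contrast is an illustration only. Capitals mark each CG in the 120 bases before the RefSeq start, read 5′ to 3′ on the gene's strand. The stretches lie at chr15:32244693-32244812 (plus), chr17:62881318-62881437 (minus), chr14:31217753-31217872 (plus) and chr3:89338029-89338148 (minus). For Sema5a and Sema3g the stretch runs past the gene start of the annotation used for all other positions.
Sema5a: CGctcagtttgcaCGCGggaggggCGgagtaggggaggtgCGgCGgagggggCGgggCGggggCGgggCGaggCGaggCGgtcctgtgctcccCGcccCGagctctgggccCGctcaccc
Efna5: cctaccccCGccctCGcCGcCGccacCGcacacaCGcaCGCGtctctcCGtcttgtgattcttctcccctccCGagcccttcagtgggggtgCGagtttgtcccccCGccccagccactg
Sema3g: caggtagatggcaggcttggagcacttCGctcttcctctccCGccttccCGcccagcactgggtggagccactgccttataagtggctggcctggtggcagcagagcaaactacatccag
Efna4: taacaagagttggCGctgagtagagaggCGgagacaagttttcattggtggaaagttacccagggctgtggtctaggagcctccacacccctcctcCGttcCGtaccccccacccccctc

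Sema5a and Efna5, at 116 ± 25.2 and 87.0 ± 11.1 TPM, held 15 and 12 CG in the printed stretch. Sema3g and Efna4, with 0 counts in all libraries and 1 count in 1 library, held 3 and 4. From 250 bases before the start to just after it, the CG count (the same on both strands) had a median of 23.5 for 50 members at 1 TPM or more in each library and 12.5 for the other 12, against 7.0 for all 32851 promoters in the table. The count ranged from 2 to 54 in those 50 members and from 2 to 56 in those 12. A count of at least 20 was found in 32 of those 50 and 2 of those 12 members, and in 26.5% of all promoters, and 94.6% of all promoters held at least 1 CG. Across the 62 members, Spearman's rho between level and CG count was 0.41. These points share the same libraries, and the rank correlation is a description only. Each member entered with the promoter of its farthest upstream start, whereas the 32851 promoters were taken without choosing 1 start per gene. Genes outside the guidance families were not split by level.

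Semaphorins formed the largest family, with 20 genes and a summed level of 616 ± 75.9 TPM. In the limma test 7 were above the median gene, 8 below, 1 was not called and 4 were not tested. Sema6a, a transmembrane ligand of plexin-A2 and plexin-A4, had 144, 101 and 104 TPM in replicates 1, 2 and 3 (chromosome 18, 47235598 to 47368870, GRCm38). Sema5a, a transmembrane semaphorin with thrombospondin repeats, lies on chromosome 15 from 32244810 to 32696341 and stood at 144, 107 and 95.6 TPM. Both were highest in replicate 1, and their order differed by less than the spread between libraries (log2 difference 0.01, SD 0.10). They exceeded the median gene 5.12-fold and 5.08-fold (limma, adjusted p = 1.48e-06 and 1.81e-06).

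Sema7a, a semaphorin held in the membrane by a lipid anchor, followed at 61.5, 73.9 and 86.8 TPM (3.28-fold above the median gene; limma, adjusted p = 3.22e-06). Unlike the leading pair it was lowest in replicate 1. Sema3c, a secreted ligand of neuropilins, stood at 98.6, 67.7 and 53.0 TPM, and Sema5b at 71.6, 48.0 and 56.2 TPM. Sema3c alone held 62.5% of the summed class 3 level of 117 ± 29.1 TPM. Sema3e, which binds plexin-D1 directly, averaged 30.7 ± 6.197 TPM and Sema3a, the classical collapsing factor of growth cones, 10.8 ± 0.597 TPM. Sema3a was called below the median gene (limma, adjusted p = 0.000475), but above it without the correction for length (log2 difference 0.57; limma, adjusted p = 0.00199), and was not called with the longest transcript as length (limma, adjusted p = 0.142). The call of Sema3e above the median gene (1.36-fold; limma, adjusted p = 0.0370) was lost without replicate 1 or replicate 2, with adjusted p-values of 0.113 and 0.108 (limma).

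Other class 3 members were scarce. Sema3d stood at 1.14, 1.94 and 1.21 TPM, the lowest semaphorin to reach 1 TPM in each library. Sema3f had 2, 20 and 17 counts, Sema3b 0, 0 and 2 counts, and Sema3g 0 counts in each library. Sema3b and Sema3f lie 72.3 kb apart on chromosome 9, and both were among the untested genes.

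The transmembrane class 4 genes lay between 0.742 TPM for Sema4c and 27.9 TPM for Sema4g. With merged exon length none of the 6 was called above the median gene, and 4 were called below. Sema4g, uncalled at a log2 difference of 0.31 (limma, adjusted p = 0.103), was called above it without the correction for length (1.24; limma, adjusted p = 2.88e-06) and with the longest transcript as length (0.79; limma, adjusted p = 0.000980). Sema4d, the ligand of plexin-B1, stood at 18.2, 15.9 and 16.5 TPM. Its call below the median gene (0.755-fold; limma, adjusted p = 0.0392) was lost without replicate 2 or replicate 3, with adjusted p-values of 0.244 and 0.123 (limma). Without the correction for length Sema4d was called above the median gene (log2 difference 0.35; limma, adjusted p = 0.0375). The call of Sema4f below the median gene was lost without replicate 1 (limma, adjusted p = 0.0824). Among class 6 genes, Sema6a was followed by Sema6d at 33.6 ± 3.52, Sema6b at 15.8 ± 2.93 and Sema6c at 4.03 ± 0.745 TPM. Sema6d was called above the median gene. The calls of Sema6b and Sema6c were below it, and that of Sema6b was lost without replicate 2 (limma, adjusted p = 0.0538).

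**Figure D1:**
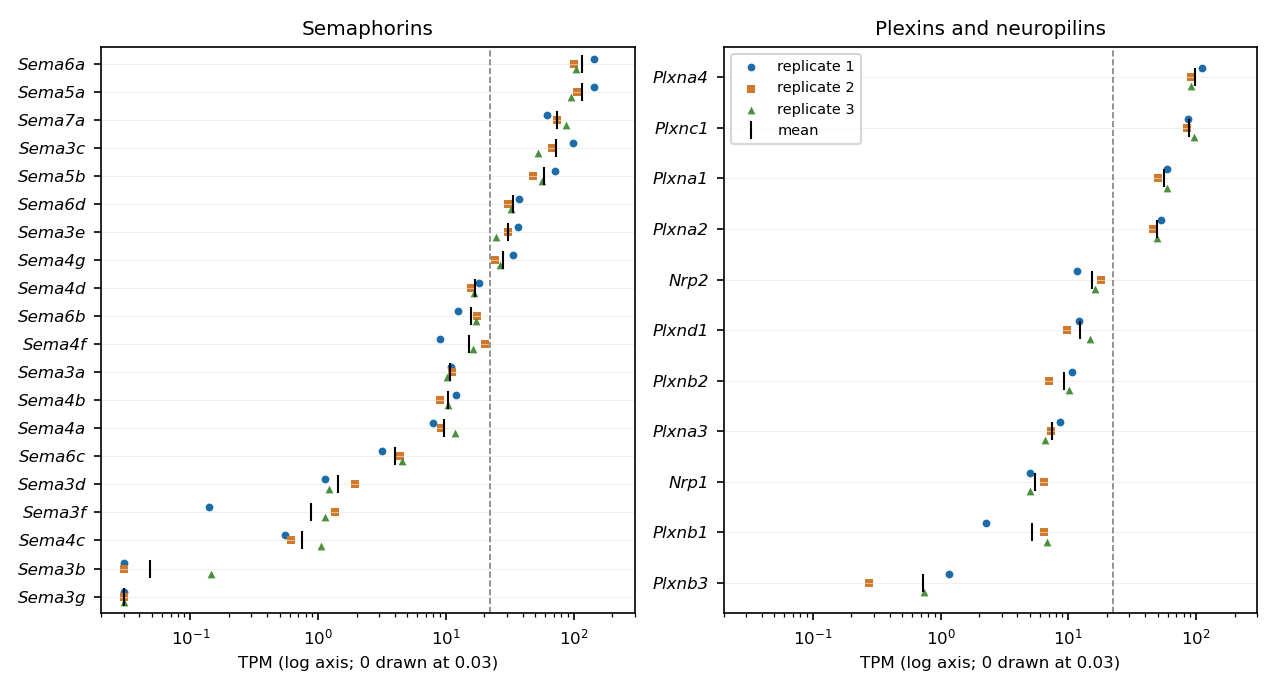
TPM (log axis) of each semaphorin on the left and each plexin or neuropilin on the right, with 1 point per library, the mean as a bar and the mean over libraries of the median tested gene as a dashed line. Sema6a and Sema5a lead the ligands, and Plxna4 and Plxnc1 the receptors, while Plxnb3 and several class 3 semaphorins lie near or below 1 TPM.

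Plexins, the signalling receptors of semaphorins, divided by subclass. Plxna4 stood at 111, 90.6 and 91.5 TPM and Plxnc1, the receptor of Sema7a, at 85.9, 84.6 and 95.6 TPM. These genes differed by less than the spread between libraries (log2 difference 0.13, SD 0.22). They were 4.34-fold and 3.95-fold above the median gene (limma, adjusted p = 1.13e-06 and 7.20e-07). Plxna1 followed at 58.9, 50 and 59.1 TPM, and Plxna2 averaged 49.5 ± 3.401 TPM. The remaining class A gene, Plxna3, was far lower at 7.49 ± 0.999 TPM (0.337-fold of the median gene; limma, adjusted p = 9.66e-05).

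Class B plexins were low in all libraries. Plxnb2 averaged 9.25 ± 1.94 TPM, Plxnb1 stood at 2.27, 6.48 and 6.82 TPM, and Plxnb3 had 21, 5 and 14 counts. Replicate 1 stood apart for Plxnb1. The median of the 4 class A genes exceeded that of the 3 class B genes by a log2 difference of 3.47 (SD 0.95), in 3 of 3 libraries. In each library the class B median was the value of Plxnb1. With 3 libraries an exact sign-flip test cannot go below 0.25 (two-sided), so such differences between genes or groups are given with their SD and no test.

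Of the neuropilins, which bind secreted semaphorins, Nrp2 stood at 11.8, 18.1 and 16.3 TPM and Nrp1 at 5.04, 6.50 and 4.99 TPM. Both were called below the median gene. Nrp2 exceeded Nrp1 by a log2 difference of 1.45 (SD 0.24) in each library. Plxnd1, which partners Sema3e, averaged 12.3 ± 2.53 TPM and was also below the median gene. Without the correction for length, Nrp2 was called above the median gene instead (log2 difference 0.83; limma, adjusted p = 0.000104), and the call of Plxnd1 was lost (-0.19; limma, adjusted p = 0.298). The call of Nrp2 was also lost with the longest transcript as length (limma, adjusted p = 0.312).

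Known ligand and receptor partners were set beside each other within libraries. Plxnc1 exceeded its ligand Sema7a by a log2 difference of 0.27 (SD 0.18), and Plxna1 exceeded Sema6d by 0.73 (SD 0.11). Plxnd1 lay below Sema3e by 1.32 (SD 0.52), and Nrp1 lay below Sema3a by 0.97 (SD 0.17). Plxna2 lay below Sema6a by 1.21 (SD 0.20). Plxnb1 lay below Sema4d by 1.83 (SD 0.97), a difference of 2.95 in replicate 1, 1.28 in replicate 2 and 1.26 in replicate 3. Each direction held in 3 of 3 libraries. Plxna4 lay below Sema6a by 0.24 (SD 0.13), but exceeded it by 0.44 when CPM was used in place of TPM. As groups, plexins and neuropilins differed from semaphorins by less than the spread (log2 difference of medians -0.32, SD 0.39, lower in 3 of 3 libraries).

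**Figure D2:**
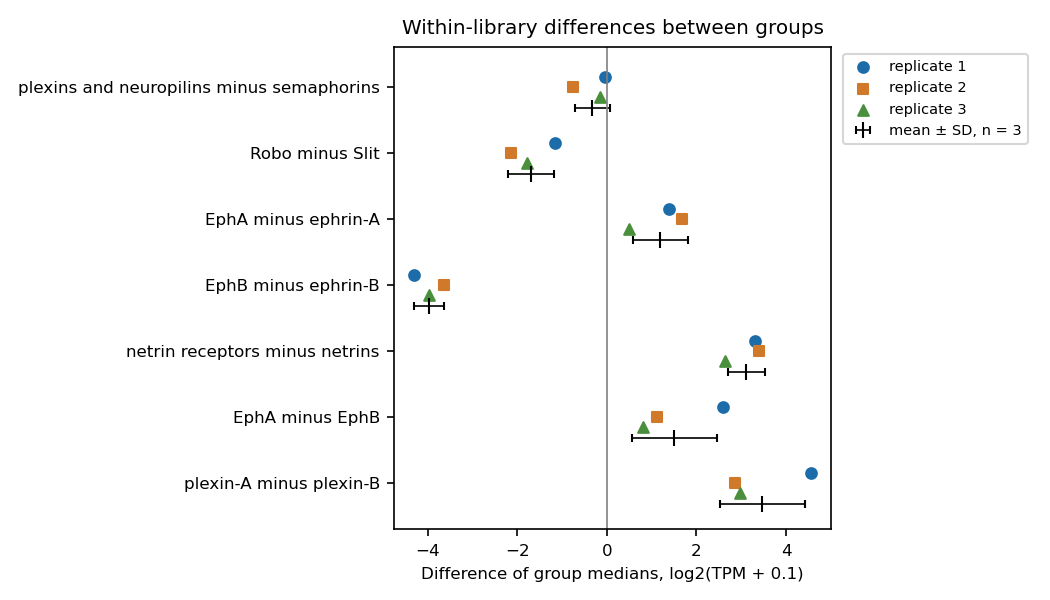
Difference of the group medians of log2(TPM + 0.1) in each library, receptors minus ligands for the upper 5 rows and subclass against subclass for the lower ones; bars are mean ± SD over 3 libraries. The medians of netrin receptors and plexin-A genes lie to the right of 0 in each library. The EphB median, that of Ephb2, lies near -4 against the ephrin-B median, that of Efnb2.

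Robo receptors split into a high and a near-absent pair. Robo2 stood at 51.7, 49.7 and 47.4 TPM and Robo1 at 45.5, 34.4 and 32.2 TPM. Both were above the median gene (2.22-fold and 1.65-fold; limma, adjusted p = 3.85e-05 and 0.00260). Robo1 was highest in replicate 1, and Robo2 exceeded it in each library (log2 difference 0.42, SD 0.21). Robo4, known from endothelial cells, had 3, 2 and 7 counts, and Robo3, known from commissural neurons of hindbrain and spinal cord, had 30, 6 and 6. Robo1 and Robo2 lie 846 kb apart on chromosome 16, and Robo3 and Robo4 lie 0.554 kb apart on chromosome 9. The 7 endothelial markers summed to 4.62 to 7.93 TPM, with the tight junction gene Cldn5 at 0 in replicates 1 and 3.

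The secreted Slit ligands of these receptors were lower than Robo1 and Robo2. Slit3 stood at 21.4, 21.7 and 26.2 TPM and was not called against the median gene (limma, adjusted p = 0.788), but was called above it without the correction for length (log2 difference 0.46; limma, adjusted p = 0.00762). Slit1 averaged 16.9 ± 2.38 TPM (0.752-fold; limma, adjusted p = 0.0490), a call lost without replicate 2 (limma, adjusted p = 0.192), without replicate 3 (0.220), without the correction for length (0.887) and without limma's variance trend (0.0614). Slit2 stood at 5.86, 5.14 and 4.03 TPM (0.226-fold; limma, adjusted p = 3.54e-05). Its merged exons span 25433 bases, more than those of the other members, and without the correction for length it lay on the other side of the median gene, uncalled (log2 difference 0.32; limma, adjusted p = 0.0836). Robo1 and Robo2 exceeded Slit2 by log2 differences of 2.87 (SD 0.14) and 3.30 (SD 0.21). Because Robo3 and Robo4 are near 0, the median of log2 values put Robo below Slit by 1.70 (SD 0.51), whereas the median TPM was 19.1 ± 3.90 for Robo against 16.9 ± 2.38 for Slit.

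Eph receptors, the largest group of receptor tyrosine kinases, were represented mostly by class A. Epha7 stood at 48.4, 44.6 and 45.7 TPM and Epha4 at 45.7, 43.7 and 46.6 TPM. Their order differed by less than the spread (log2 difference 0.03, SD 0.06). Both were above the median gene, 2.07-fold and 2.02-fold (limma, adjusted p = 6.99e-05 and 7.17e-05). Epha6 stood at 29.4, 29.7 and 39.6 TPM and was highest in replicate 3. Its call above the median gene (1.46-fold; limma, adjusted p = 0.00600) was lost without replicate 3, with an adjusted p of 0.0626 (limma). Epha5 averaged 31.8 ± 1.69 TPM and was above the median gene as well.

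The other class A receptors were low. Epha3 stood at 11.8, 7.73 and 5.78 TPM, and Epha10, which lacks a functional kinase, at 2.82, 3.31 and 6.25 TPM. Both were below the median gene. Epha8, Epha1 and Epha2 were not tested, with at most 15, 11 and 2 counts in a library. Epha1 had 0 counts in replicate 2 and Epha2 in replicate 1.

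No class B receptor was called above the median gene. Ephb6, a receptor without kinase activity, stood at 8.08, 13.8 and 16.1 TPM, and Ephb1 at 3.94, 9.14 and 9.89 TPM. Both were lowest in replicate 1. Ephb2 averaged 2.96 ± 0.944 TPM and Ephb3 stood at 1.31, 2.30 and 1.56 TPM. All 4 were called below the median gene, Ephb3 at 0.0794-fold (limma, adjusted p = 1.22e-05). Ephb4, known from veins, had 6, 0 and 0 counts. The class A median exceeded the class B median by a log2 difference of 1.51 (SD 0.95), which was 2.59 in replicate 1, 1.12 in replicate 2 and 0.81 in replicate 3.

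**Figure D3:**
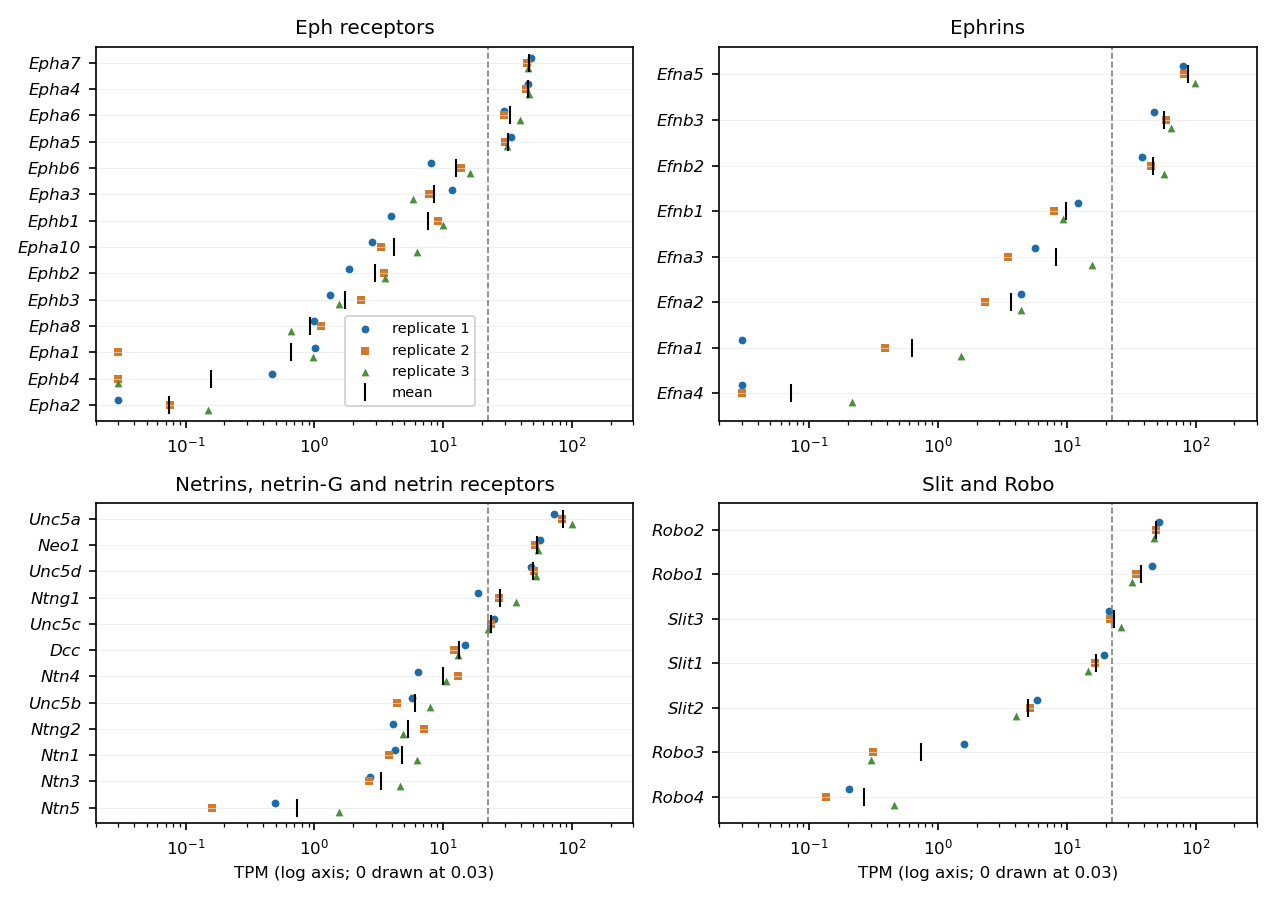
TPM (log axis) of each Eph receptor, ephrin, netrin family gene or netrin receptor, and Slit or Robo gene, with 1 point per library, the mean as a bar and the median tested gene as a dashed line. In each family a few genes lie to the right of the line in all libraries (Epha7 and Epha4, Efna5, Unc5a, Robo2), and no EphB gene does.

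Among ephrins, 1 of the 5 lipid-anchored class A ligands carried almost all of the class. Efna5 stood at 80.3, 81.0 and 99.8 TPM (3.87-fold above the median gene; limma, adjusted p = 9.98e-07), or 87.3% of the summed ephrin-A level. Efna3 stood at 5.67, 3.50 and 15.6 TPM, highest in replicate 3, and 14.1% of its exon bases overlap an antisense gene. Efna2 stood at 4.43, 2.34 and 4.39 TPM. Efna1 had 0, 2 and 8 counts and Efna4 0, 0 and 1. Efna1, Efna3 and Efna4 lie next to each other on chromosome 3 between 89271733 and 89338028.

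The transmembrane ephrin-B genes were high for 2 of 3 members. Efnb3 stood at 47.9, 59.1 and 64.1 TPM and Efnb2 at 38.7, 44.9 and 57.1 TPM. Both were lowest in replicate 1 and above the median gene (2.53-fold and 2.07-fold; limma, adjusted p = 1.48e-05 and 9.78e-05). Efnb1 was below it at 12.2, 8.03 and 9.33 TPM (limma, adjusted p = 0.000555). The EphB median lay below the ephrin-B median by a log2 difference of 3.98 (SD 0.33), in 3 of 3 libraries. In each library these medians were the values of Ephb2 and Efnb2, so the difference is that of 1 pair of genes. Ephb6 averaged 12.6 TPM, more than Efnb1 at 9.85 TPM. For class A the receptor median exceeded the ephrin median by a log2 difference of 1.19 (SD 0.62). The ephrin-A median was the value of Efna2 in each library. The EphA median was that of Epha3 in replicates 1 and 2 and of Epha10 in replicate 3, so this difference too is one between single genes.

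Single partners were set beside each other as well. Against the direction of the class A medians, Epha5 and Epha7 lay below Efna5 by log2 differences of 1.44 (SD 0.21) and 0.90 (SD 0.20). Without the correction for length they were higher than Efna5, by 0.61 and 0.39. Epha4, which also binds ephrin-B ligands, lay below Efnb3 by 0.32 (SD 0.22), which turned to 1.02 without the correction for length and to 0.027 with the longest transcript as length.

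Of the 6 netrin receptors 3 were above the median gene, 2 below and 1 not called, and the 3 netrins that could be tested were below. Unc5a, a receptor for repulsion from netrin, stood at 72.7, 84.2 and 99.3 TPM, lowest in replicate 1 (3.78-fold above the median gene; limma, adjusted p = 1.22e-06). Neo1, which binds netrins and repulsive guidance molecules, stood at 56.3, 51.2 and 54.0 TPM and Unc5d, which also binds Flrt proteins, at 47.7, 50.3 and 52.4 TPM. Both were above the median gene (2.40-fold and 2.24-fold; limma, adjusted p = 2.09e-05 and 2.62e-05), and their order lay within the spread. Unc5c averaged 23.5 ± 1.28 TPM and was not called (log2 difference 0.07; limma, adjusted p = 0.652). It was called above the median gene without the correction for length (2.15; limma, adjusted p = 1.80e-09) and with the longest transcript as length (0.62; limma, adjusted p = 0.00236). Unc5b averaged 5.99 ± 1.79 TPM and was below the median gene.

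Dcc, the receptor for attraction to netrin, stood at 14.7, 12.1 and 13.0 TPM (0.594-fold of the median gene; limma, adjusted p = 0.00294). It lies on chromosome 18 from 71253634 to 72351069, the longest member by gene span. Neo1 and Unc5a exceeded Dcc by log2 differences of 2.02 (SD 0.07) and 2.67 (SD 0.33). Without the correction for length, Dcc was called above the median gene (log2 difference 0.78; limma, adjusted p = 0.000160).

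Netrin ligands were all called below the median gene where tested. Ntn4 stood at 6.40, 13.1 and 10.5 TPM, lowest in replicate 1. Ntn1, the classical midline attractant, averaged 4.77 ± 1.33 TPM and Ntn3 stood at 2.70, 2.64 and 4.61 TPM. Ntn5 had 3, 1 and 10 counts, and 23.4% of its exon bases overlap another gene. The receptor median exceeded the netrin median by a log2 difference of 3.12 (SD 0.41), and Dcc exceeded Ntn1 by 1.49 (SD 0.40).

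The membrane-anchored netrin-G genes bind synaptic partners of the Lrrc4 family rather than netrin receptors. Ntng1 stood at 18.6, 27.2 and 36.7 TPM and was not called against the median gene (limma, adjusted p = 0.222). It was called above the median gene without replicate 1 (log2 difference 0.46; limma, adjusted p = 0.00769) and without the correction for length (1.11; limma, adjusted p = 1.64e-05). Ntng2 averaged 5.36 ± 1.58 TPM, and Ntng1 exceeded it by a log2 difference of 2.32 (SD 0.51). Lrrc4c, the partner of Ntng1, stood at 415 ± 33.6 TPM and Lrrc4, the partner of Ntng2, at 164 ± 6.14 TPM.

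Genes downstream of these receptors, together with coreceptors, other ligands and surface partners, were described by lists from general knowledge. Of 29 tested semaphorin and plexin signalling genes, 20 were above and 7 below the median gene, with a list median of 79.0 ± 11.4 TPM. For these lists as for the guidance genes, 43.2% of all tested genes were above and 42.7% below. The GTPase Rac1 at 2051 ± 250 TPM, its target kinase Pak1 at 1319 ± 49.7 TPM and the actin-severing protein Cfl1 at 945 ± 98.1 TPM led it. In the Slit and Robo signalling list 14 of 20 were above and 6 below, led by the Robo-binding Srgap3 at 623 ± 97.7 TPM, Cdc42 at 460 ± 13.2 TPM and Ndfip1 at 413 ± 9.02 TPM. For Eph and ephrin signalling, 11 of 20 were above and 6 below. The exchange factor Kalrn at 632 ± 185 TPM, the Rac regulator Chn1 at 529 ± 36.9 TPM and Sipa1l1 at 339 ± 25.0 TPM led.

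In the netrin list 12 of 15 tested genes were above and 2 below, beside the same 43.2% and 42.7% over all tested genes. It was led by Map1b at 1622 ± 245 TPM, Pitpna at 831 ± 105 TPM and Lrrc4c. Draxin, a secreted protein that binds netrin and Dcc, averaged 0.682 ± 0.361 TPM and was not tested. Guidance cues and myelin inhibitors outside the rule had 6 of 17 above and 10 below. The myelin-associated inhibitor genes Omg at 561 ± 73.5 TPM and Rtn4 at 490.2 ± 21.1 TPM and the coreceptor Lingo1 at 227 ± 46.8 TPM led them. The vascular receptor Kdr averaged 0.0642 ± 0.0797 TPM.

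Variation between the libraries was tested with a chi-square test of each gene's counts against library sizes scaled by TMM, the trimmed mean of M-values. The counts of 50 of 58 guidance genes differed between libraries beyond counting error (Benjamini-Hochberg over 12949 genes), or 86.2%, and 74.2% of all tested genes did. The test has more power at higher counts, and the tested guidance genes had a median of 409 counts per library against 271 for all tested genes. The ratio of the highest to the lowest library had a median of 1.44 for guidance genes and 1.40 for all genes. Without replicate 1 the number was 24, with 42.7% of all genes called, and genes that no longer passed included Sema6a, Plxna4 and Robo1.

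The 8 largest ratios among them belonged to genes of modest level. Efna3 had 38, 24 and 110 counts (ratio 4.42; chi-square, adjusted p = 1.26e-14) and Plxnb1 60, 175 and 189 (2.92; adjusted p = 1.40e-13). Ephb1 had 76, 180 and 200 counts (2.44; adjusted p = 5.76e-11) and Sema4f 132, 303 and 251 (2.21; adjusted p = 4.90e-13). Replicate 1 was lowest for Plxnb1, Ephb1 and Sema4f, and replicate 3 highest for Efna3. Epha10 had 56, 67 and 130 counts, Epha3 282, 189 and 145, Ntn4 66, 138 and 113, and Ephb6 84, 146 and 175, with ratios of 2.15, 2.10, 2.01 and 1.93. Without replicate 1, Plxnb1, Ephb1, Ntn4 and Ephb6 no longer differed beyond counting error, and without replicate 3 neither did Efna3 or Epha10.

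**Figure D4:**
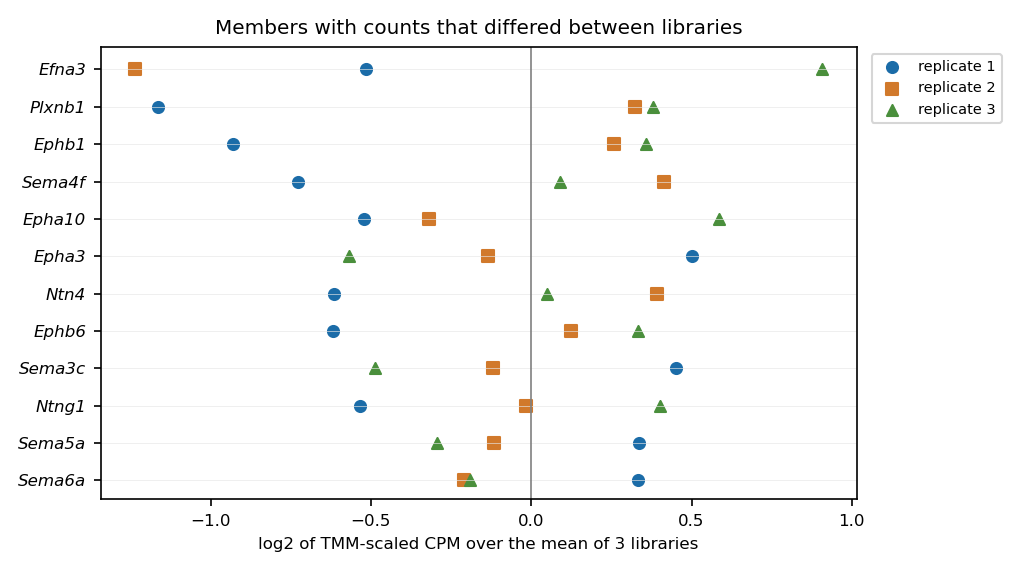
TMM-scaled CPM of each library over the mean of the 3 libraries (log2) for the 10 members with the largest ratios that passed the chi-square test, and for Sema5a and Sema6a. Replicate 1 lies left of 0 for Plxnb1, Ephb1, Sema4f, Ntn4, Ephb6 and Ntng1, and right of 0 for Epha3, Sema3c, Sema5a and Sema6a.

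Replicate 1 was the highest library for 24 of the 50 genes, among them Sema5a, Sema6a, Sema3c, Epha3, Robo1 and Plxna4, replicate 3 for 19, among them Ntng1, Unc5a, Efnb2 and Sema7a, and replicate 2 for 7. Over all genes that differed, 39.8% were highest in replicate 1 36.5% in replicate 3 and 23.7% in replicate 2. Markers of oligodendrocytes, a cell type in which Sema5a and Sema6a are also known, summed to 483, 324 and 286 TPM over 10 genes in replicates 1, 2 and 3. Of these markers, 9 of 10 reached 1 TPM in each library, and Opalin was at 0 in replicate 3. Precursor markers summed to 77.1, 61.8 and 55.4 TPM over 6 genes. Their part in the levels of Sema5a and Sema6a was not tested.

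Base composition moved with the libraries too. The longest annotated transcripts of the genes highest in replicate 1 had a median GC content of 49.01%, against 57.6% for those highest in replicate 3. Across 58 guidance genes, Spearman's rho between transcript GC content and the log2 ratio of replicate 3 over replicate 1 was 0.41, and 0.24 across 12072 genes of all kinds. For replicate 3 over replicate 2 it was 0.45 and 0.25, and for replicate 2 over replicate 1 it was 0.08 and 0.09. The points share their libraries and genes are not independent replicates, and the part of base composition in these differences was not tested.

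Guidance genes at higher levels tended to occupy longer stretches of the genome. The 58 genes at 1 TPM or more in each library had a median span of 138 kb, from 5.68 to 1097 kb. The other 14 had a median of 14 kb, and none of these exceeded 29.0 kb. Spearman's rho between TPM and gene span was 0.55 across the 72 guidance genes and 0.33 across 20424 protein-coding genes, whose median span was 18.4 kb. Guidance genes above the median gene had a median span of 162 kb and those below it 40.2 kb, against 29.8 kb and 26.9 kb for protein-coding genes of all kinds above and below. Several genes went against this order. Efnb3, with a span of 6114 bases, and Sema7a, with 22754 bases, were called above the median gene. In the other direction, Sema3d, with 205564 bases, was called below it, as were the longer Dcc, Sema3a, Ephb1, Slit2 and Epha3.

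**Figure D5:**
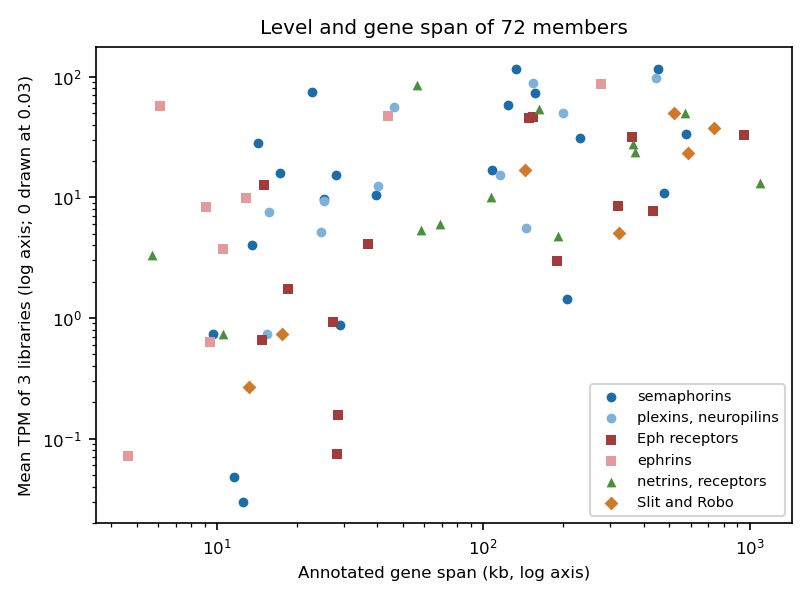
Mean TPM of 3 libraries (log axis) against annotated gene span (log axis) for the 72 protein-coding guidance genes, 1 point per gene, coloured by family. Genes at the lowest levels lie at spans under 30 kb, while long genes reach levels from 1.43 to 116 TPM.

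The antisense match Plxna4os1 had 3, 0 and 1 counts. Since the strand setting behind the counts is not given in the sources used here, reads from opposite strands could not be separated. Exon overlap with other annotated genes exceeded 10% for 5 members, Efna3, Efna4, Ntng2, Ntn5 and Plxna1.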

How the data were processed

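The deposited files hold raw read counts per gene symbol, whole numbers that the authors did not normalize, 1 file per library. The submitters' processing notes list STAR 2.0.0e, HTSeq and the build mm10 but assign them no step. Annotation, counting mode and strand setting: not given in the sources used here. Lines that name no gene stayed out, among them 1 unnamed row with 0 counts in each library: 11.0 to 13.1% of records fell on no feature, 2.49 to 2.83% were ambiguous and 11.2 to 13.1% were not uniquely aligned.

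Exon lengths and positions came from GENCODE M21 (GRCm38, the assembly mm10 denotes). Of 32531 symbols, 23161 matched directly and 736 by an older name. TPM used merged exon length. Levels were tested as log2(TPM + 0.1) minus the library's median over genes averaging 1 CPM or more, with limma 3.58.1 (trended variance, two-sided). Differences between libraries used a chi-square test with TMM factors from edgeR 4.0.16. DESeq2 1.42.0 size factors were an alternative. Adjustment was by Benjamini-Hochberg over all tested genes, threshold 0.05. Scripts ran in R 4.3.3 and Python 3.11.15 (NumPy 2.4.6, pandas 2.3.3, matplotlib 3.10.9), and both tests were tested on simulated data.

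The members and lists were chosen with earlier results of these data known. Values per library are given for the 3 highest members and the lowest at 1 TPM of each family, for the 8 largest ratios between libraries and for members with 0 counts. Further members were named after their values were seen. The libraries differed from each other by far more than sampling noise (mean chi-square per gene 23.9 to 52.1 for each pair), so none was a second copy of another, which does not show that they came from separate animals. Limma p-values rest on the spread among the 3 libraries, with variance shared across all tested genes. Chi-square p-values measure departure from counting error alone. In both cases the differences between libraries could be technical.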

Additional observations from a re-analysis of the deposited data

How the results depend on the processing

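No paired analysis was possible because the libraries form 1 group. The counts of guidance genes above and below the median gene stayed within 1.5 times (22 to 31 above, 23 to 31 below) under each alternative run (other pseudocounts, CPM, the longest transcript, genes with any count, no variance trend, each library left out). Which side held more genes did change. As reported 23 were above and 31 below, against 31 and 23 as CPM and 31 and 27 with genes of any count. In that last run 44.5% of all tested genes were above and 43.9% below. The number that differed between libraries ranged from 24 to 44 with a library left out. Of the group differences (log2), Robo minus Slit was -1.14 with a pseudocount of 1 and -1.03 with the longest transcript as length, against -1.70. EphB minus ephrin-B was -3.61 with a pseudocount of 1 and -2.31 as CPM, against -3.98. EphA minus ephrin-A was 3.12 as CPM, against 1.19. Netrin receptors minus netrins was 4.16 as CPM and 3.54 with the longest transcript, against 3.12. None of these turned in direction. As CPM, Slit2 lay above the median gene at 0.32, Plxna4 minus Sema6a was 0.44, Epha5 minus Efna5 0.61, Epha7 minus Efna5 0.39 and Epha4 minus Efnb3 1.02, or 0.027 for that last pair with the longest transcript. With genes of any count the median gene stood at 11.1 TPM, against 22.3 TPM, by construction, which turned 8 members in direction. Among these, Nrp2 (0.45), Sema4d (0.60), Sema6b (0.49) and Slit1 (0.59) went from a call below the median gene to a call above it. Their adjusted p-values were 0.0372, 0.00753, 0.0219 and 0.0111 (limma). Ephb6 at 0.13 and Sema4f at 0.38 turned without a call. A further 9 members lost their call below the median gene, among them Ephb1, Ntn4 and Sema3a, and 4 that had no call gained one above it. Slit3, called above the median gene as CPM and with genes of any count but not in the comparison as reported, was -0.18 with the longest transcript and ranged from -0.040 to 0.099 with a library left out. The highest member of a family was the same in 3 of 6 families as CPM, where Epha5, Neo1 and Sema5a led in place of Epha7, Unc5a and Sema6a. It was the same in 4 with the longest transcript (Epha5 and Sema5a led) and in 5 without replicate 3 (Sema5a led). Levels between genes depend on annotated lengths, and genes under 1 CPM are limited by depth.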
